A study of Helianthus annuus with 8 samples.

Results

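Untreated sunflower leaves of 2 ages were compared on one-colour Agilent oligonucleotide arrays: 3 control samples labelled 50 days against 2 control samples labelled 45 days. These 5 arrays were chosen by their labels, out of 8 in the series, and all 5 enter each comparison between the ages. The plants were of the hybrid VDH 481, an oilseed sunflower grown in the field with irrigation, and the control leaves had received no treatment. The methods state that an experimental unit was made up of 3 plants of one plot, so a sample may be a pool, and they describe leaf sampling at a single age lying between the labelled ages, so the ages are given here as labelled. The other 3 arrays were 2 samples of plants under mild water deficit, labelled 45 days, and 1 sample of plants whose flower head had been cut off, labelled 50 days. All 4 arrays of 45 days lay on one slide and all 4 arrays of 50 days on another. Age and slide therefore cannot be told apart in any difference given here, and what can be measured is how far the slides differed in spots that carry no leaf RNA.

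A sunflower leaf passes from export of sugars and growth to senescence within a few weeks. In ageing leaves chlorophyll and photosynthetic proteins are broken down, nitrogen and phosphorus are moved to growing organs and seeds, and many transcripts of hydrolases, transporters and regulators rise while those of chloroplast biosynthesis fall. Water shortage and removal of the flower, which is the sink for leaf sugars, are both known to change the timing of this programme.

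The array carries 40243 non-control probes, each designed on an expressed sequence or a contig of expressed sequences (a unigene). The files pair probes with neither a gene name nor a sequence, and none of the probe names or their accessions matched the sunflower RefSeq gene table, so markers of leaf or of any other tissue could not be checked. A unigene name was recovered where the study's own tables allowed it, and Gene Ontology terms were at hand for 473 singletons, of which 463 lie on the array. In bulk leaf tissue, a lower signal from fewer cells of a type cannot be told apart from less RNA per cell.

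The slide difference was gauged first with the 10 E1A spike-in RNAs, synthetic transcripts added in a fixed mix to each RNA sample before labelling and read by 32 spots each. Their mean log2 processed signal, before any normalization between arrays, was 11.05 and 11.30 on the 45-day control arrays. It was 11.47, 11.38 and 11.50 on the 50-day control arrays, so that all 3 lay above both 45-day arrays. The means differed by 0.28 log2 units (exact permutation test over the 5 arrays, two-sided, p = 0.1, the smallest p that 10 arrangements allow). The 45-day arrays differed from each other by a like amount: 9 of the 10 spike-ins were brighter on replicate 2 than on replicate 1. For E1A_r60_a20 the excess was 0.39 log2 units between these arrays of one slide, against 0.28 between the ages.

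**Figure D1:**
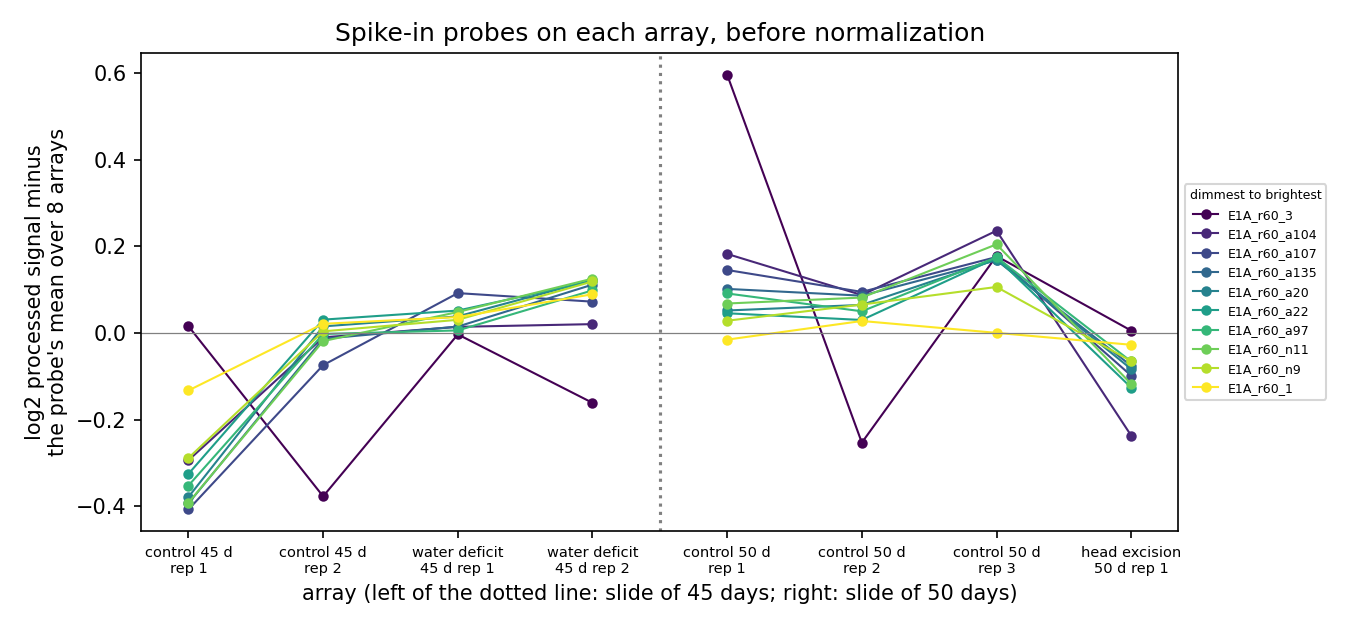
Log2 processed signal of each of the 10 spike-in probes on each array (points, mean of 32 spots), given as the difference from that probe's mean over the 8 arrays. Control replicate 1 of 45 days is the lowest array for 9 of the probes, and E1A_r60_3, the dimmest, scatters most.

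With the water deficit arrays (11.38 and 11.42) and the head excision array (11.26) included, the slides of 45 and 50 days had mean spike-in signals of 11.29 ± 0.16 and 11.40 ± 0.11 (SD, n = 4 each) and overlapped (difference 0.12, exact permutation test, two-sided, p = 0.286). After quantile normalization over the 8 arrays the spike-ins of the control arrays differed by 0.05 between the ages (exact permutation test, two-sided, p = 0.8). Single spike-ins then ranged from -0.07 (E1A_r60_a22) to 0.26 (E1A_r60_n9), 50 minus 45 days, and the largest values belonged to the bright n9 and n11. When the 60 Agilent control probes were fitted together with the leaf probes, 0 of them had an adjusted p (limma, Benjamini-Hochberg) below 0.05 and 0 had an unadjusted p below 0.01, against 177 and 2222 of the 28497 leaf probes. That fit called 0.62% of its 28557 probes. Many control probes were dark and left little room for a difference: 2 spike-ins and 29 of the 50 other Agilent controls had a mean level at or below 3.98, the highest of the levels at which a probe was still well above background. Above that level the median size of the difference was 0.04 for 8 spike-ins and 0.14 for 21 other Agilent controls. For 27185 leaf probes it was 0.30. Of these 29 control probes 0 had an unadjusted p (limma) below 0.01, against 1992 of the 27185 leaf probes. So few control probes cannot be set against that share. Some of the other controls read close to a spike-in. DCP_22_0 (mean level 12.48, difference -0.07) lay beside E1A_r60_a22 (12.47, -0.07), and DCP_20_0 (10.74, -0.08) beside E1A_r60_a20 (10.73, -0.06). Whether such probes read the same RNA was not tested, so the 29 may not be independent. Each spike-in value was a mean over 32 spots, which lowers its scatter, while most leaf probes were read by a single spot. How much of the gap between control and leaf probes follows from this was not tested. The most negative control, at -0.67, was the bright-corner spot. Differences up to these sizes were thus seen in spots without leaf RNA.

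Spots other than Agilent controls had a median processed signal of 108.0 and 89.1 on the 45-day control arrays, and of 122 to 137 on those of 50 days. Relative to the spike-ins of the same array, the log2 median was -4.30 and -4.83 at 45 days and between -4.49 and -4.38 at 50 days, inside the 45-day range. Between 69.8% and 72.7% of the non-control spots were well above background, and no spot was saturated. Among the tested probes, 7.85% differed by more than 1 log2 unit between the 45-day controls and 4.97% to 7.73% between pairs of 50-day controls. Across the ages, 10.3% to 11.4% did so with 45-day replicate 1 and 12.2% to 18.2% with 45-day replicate 2. That replicate also lay nearer to the water deficit arrays of its slide (9.83% and 13.4% of probes over 1 log2 unit) than replicate 1 did (16.7% and 20.7%), a difference among the 45-day controls that enters each result below.

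Of the 40243 probes, 28497 were flagged well above background on every array of 1 age or of both, and these were tested on the deposited log2 values. On all 5 arrays 26963 of them were so flagged. The distribution of differences was centred: the median was 0.0015 log2 units, and from the 5th to the 95th percentile values ran from -0.98 to 0.97. Differences over 1 log2 unit in size were found for 2722 probes (9.55%). In the limma fit of the 5 arrays 184 probes (0.646%) passed an adjusted p of 0.05. At 50 days 119 of them (0.418%) were higher and 65 (0.228%) lower. All 184 had non-overlapping groups, where 21.1% of all tested probes had every 50-day value above both 45-day values and 21% had every one below. At an unadjusted p below 0.01, 2233 probes (7.84%) passed, 1133 (3.98%) higher and 1100 (3.86%) lower.

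The count of 184 rested on few arrays and on the probes that the filter let in. With the replicate number as a block, 0 probes passed. Without 50-day replicate 3, 3 probes passed, without 45-day replicate 2, 61, and without 50-day replicate 1 or 2, 89 or 76. Among the 26963 probes measured on all 5 arrays, tested alone, 9 passed (5 higher, 4 lower), all of them among the 184. Higher probes made up 64.7% of the calls on the deposited values, 48.5% (302 of 623) when arrays were scaled to the spike-ins and 81.5% (441 of 541) with no normalization, where the median of all probes shifted by 0.34. The split into higher and lower thus depends on the scaling.

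**Figure D2:**
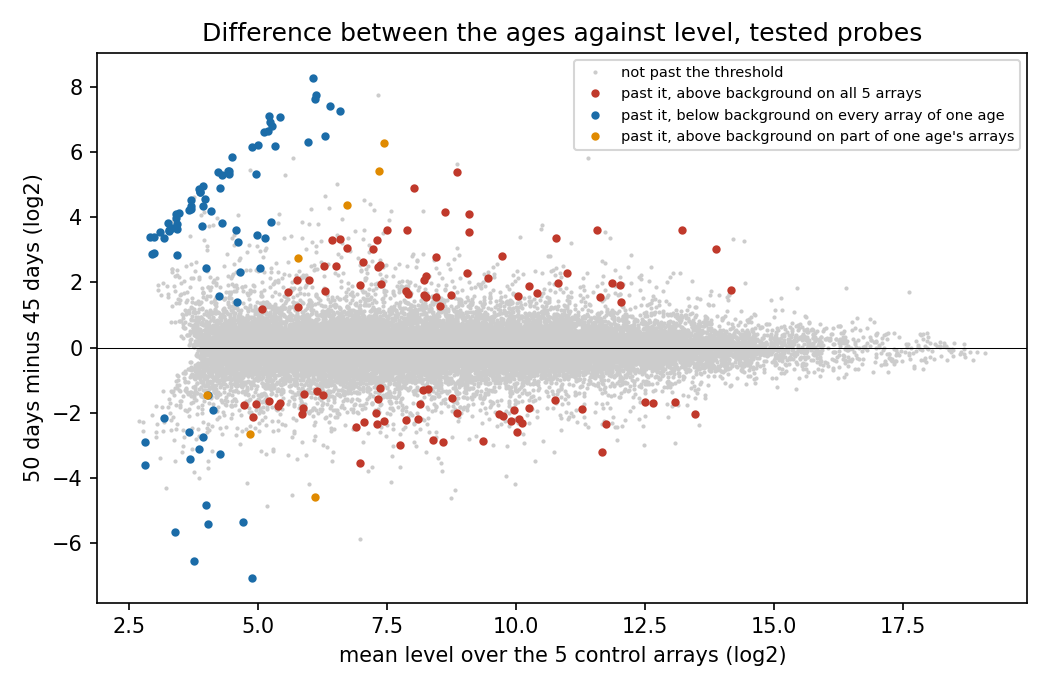
Difference between the ages (50 minus 45 days, log2) against the mean level over the 5 control arrays (log2) for 28497 tested probes, with the 184 that passed the threshold in colour. Probes below background on every array of one age (blue) form the left edge of the coloured points. They hold the coloured differences above 6, except for a probe above background on part of one age's arrays (orange) at 6.27. Probes measured on all 5 arrays (red) run from -3.54 to 5.41.

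Among the 119 higher probes, 63 were not well above background on either 45-day array, 4 were so on 1 of them and 52 were measured on all 5 arrays. Among the 65 lower probes, 16 were below background on every 50-day array, 3 on part of them, and 46 were measured on all 5. A probe below background at one age passed the filter only through the age at which it was bright, so its direction was set by the filter. For the 98 calls measured on all 5 arrays the median difference was 2.17 log2 units among the higher and -2.01 among the lower probes.

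The 63 probes called from below background at 45 days shared a profile over the 50-day arrays. Their high 50-day values had been used by the filter and the test, but the order of the replicates within that age had not. At 50 days 52 of the 63 were brightest in replicate 2, intermediate in replicate 3 and dimmest in replicate 1, an order found in 16.8% of all tested probes. In 51 of these 52 the head excision array of the same slide lay below all 3 controls. The steps were also of like size: replicate 2 exceeded replicate 1 by a median of 0.97 log2 units (interquartile range 0.60 to 1.06) and replicate 3 exceeded it by 0.36 (0.23 to 0.46), against medians of 0.01 and -0.01 over all tested probes. The head excision array minus the 50-day control mean had a median of -2.53, against 0.002 over all tested probes. The 52 higher probes measured on all 5 arrays held this order in 18 cases (34.6%) and had a median step of 0.11 from replicate 1 to 2. The 264 probes detected at 50 days alone but not called held it in 69 cases (26.1%). The head excision array, which was not part of the filter, lay below all 3 controls for 88.9% of the 63. It did so for 50.4% of these 264, which the filter also took for bright 50-day values, and for 28.9% of all tested probes. Its median difference from the 50-day control mean was -0.29 for the 264. The likeness among the 63 was noticed after their values were seen and carries no test. As probe sequences were not at hand, how many of the 63 read the same transcript was not tested.

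**Figure D3:**
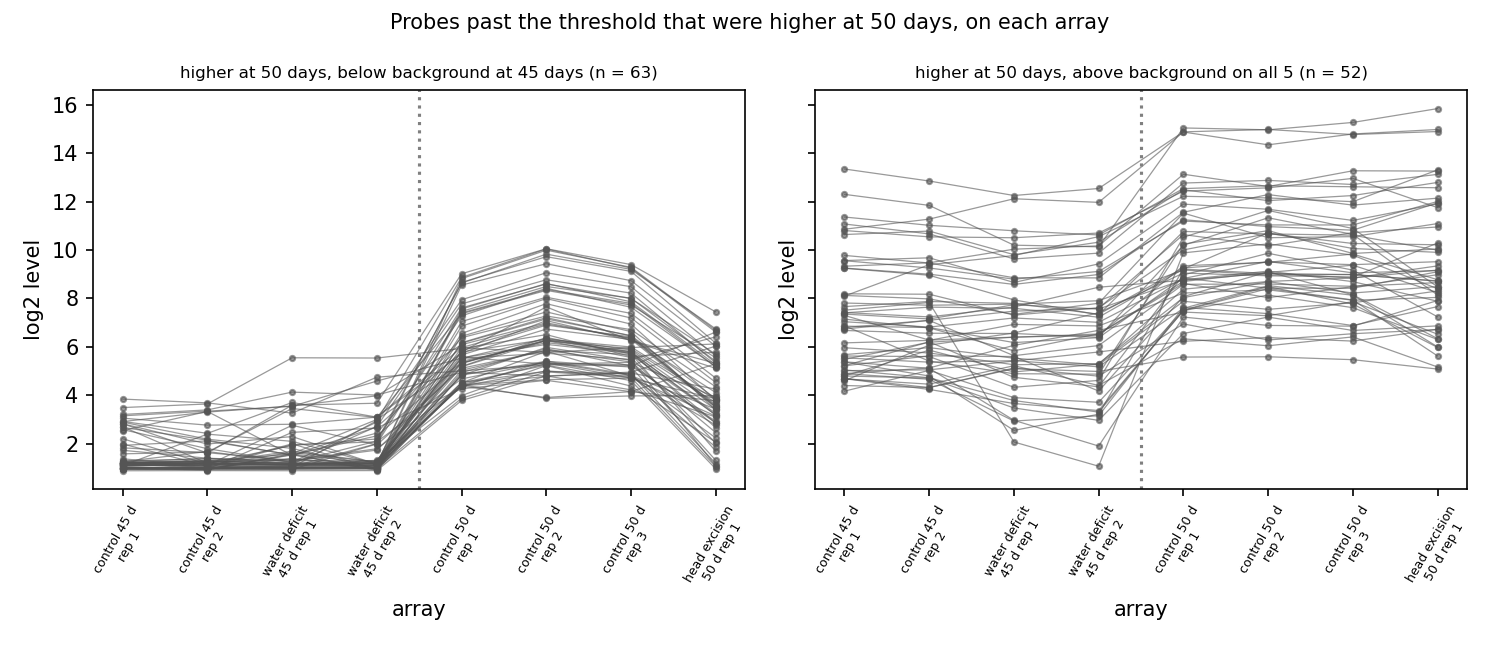
Log2 level on each of the 8 arrays (x axis, slide of 45 days left of the dotted line) of the probes called higher at 50 days, 1 line per probe. The 63 probes below background at 45 days (left) mostly peak in replicate 2 of the 50-day controls (52 hold the same order) and lie lower on the head excision array, while 18 of the 52 probes measured on all 5 arrays (right) hold that order.

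The size of these differences can be given only as a bound. For this the mean of the bright age was set against a floor on each array of the other age. The floor was the lowest level still flagged well above background there, or the probe's own value where that was higher. Some probes above that lowest level were not flagged, so the bounds are approximate. No p is given for probes below background at one age, which entered the test only through their bright age. The largest bound among the higher calls was at least 49.1-fold (deposited means 2.22 and 9.49). This probe read 2.82 and 1.61 on the 45-day controls, 9.02, 10.05 and 9.40 on the 50-day controls and 7.44 after head excision, so it too held the common order. In the other direction, the largest bound among the lower calls was at least 50.2-fold. That probe read 9.23 and 9.01 at 45 days, 1.51, 1.81 and 2.83 on the 50-day controls and 8.83 on the head excision array. A further probe called lower read 7.84 and 7.55 at 45 days and 1.13 on each of the 50-day controls. It was at least 18.7-fold lower, yet read 7.60 on the head excision array. Another read 6.84 and 6.75 at 45 days and 1.12 to 1.13 at 50 days, at least 10.0-fold lower, and 1.34 after head excision. The probes lost at 50 days were therefore not uniform on that slide: of the 16, 8 were well above background on the head excision array, and all 16 on both water deficit arrays.

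Without regard to the test, 327 probes were well above background on all 3 arrays at 50 days and on neither at 45 days, and 91 on both arrays at 45 days and none at 50 days. Of the 327, 303 allowed a bound above 1, with a median of at least 1.50-fold, and 38 reached at least 4-fold. All 91 of the other set allowed a bound, with a median of at least 2.30-fold, and 19 reached at least 4-fold. Most of these signals were thus close to background. Of the 63 called probes of the first set, both water deficit arrays detected 4 and neither detected 56, while the head excision array detected 34. Of all 327, both water deficit arrays detected 109, neither detected 156, and the head excision array detected 234.

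Among unnamed called probes measured on all 5 arrays, the largest rise belonged to CUST_12593_PI423492394. Its log2 level was 5.62 and 5.60 in the 45-day controls and 10.53, 11.63 and 10.89 in the 50-day controls, and the groups lay far apart. The difference was 5.41 ± 0.34 log2 units (SE, 42.4-fold, adjusted p = 0.00705), and it was one of the 9 probes that passed when only probes measured on all 5 arrays were tested. Its 50-day values had the order described above, and the head excision array read 8.48. CUST_14112_PI423492394 read 5.37 and 4.79 at 45 days and 9.22, 10.71 and 10.06 at 50 days, a difference of 4.91 ± 0.46 (SE, adjusted p = 0.0261). Here the head excision array, at 9.90, lay within the 50-day controls, and the water deficit arrays were below background. Its adjusted p was 0.0663 among probes measured on all 5 arrays.

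Among called probes measured on all 5 arrays, the largest fall was that of CUST_9405_PI423492394, which reads the contig HeAn_C_9407. It read 8.50 and 9.72 at 45 days and 5.57, 5.65 and 5.49 at 50 days, a difference of -3.54 ± 0.37 (SE, 11.7-fold lower, adjusted p = 0.0330). The 45-day replicates differed by more than 1 log2 unit, and the water deficit arrays of their slide stood higher still, at 12.33 and 12.54. CUST_3619_PI423492394, a bright probe, read 13.48 and 13.70 at 45 days and 10.00, 10.85 and 10.31 at 50 days, a difference of -3.20 ± 0.28 (SE, 9.21-fold lower, adjusted p = 0.0204). The head excision array, at 10.02, lay among the 50-day controls. Among probes measured on all 5 arrays the adjusted p of these falls was 0.0663 and 0.0635. All 4 probes missed the threshold with the replicate number as a block (adjusted p 0.0650 to 0.0897) and without 50-day replicate 3 (0.0627 to 0.147).

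Of the 463 annotated singletons on the array, 343 were tested and 2 passed the threshold, 1 in each direction. HeAn_S_25299 carries the terms N-methyltransferase activity, one-carbon metabolic process, phospholipid metabolic process and response to stimulus. Methyltransferases move methyl groups, mostly from S-adenosylmethionine, and N-methylation of phosphoethanolamine is a step towards the membrane lipid phosphatidylcholine in plants. HeAn_S_25299 read 6.80 and 7.10 at 45 days and 10.64, 10.17 and 10.72 at 50 days. The difference of 3.56 ± 0.23 log2 units (SE, 11.8-fold) had an adjusted p of 0.00722, and of 0.0444 among probes measured on all 5 arrays. It missed the threshold without 50-day replicate 3 (adjusted p = 0.0627) and with the replicate number as a block (0.0698). The other arrays followed their slides: water deficit 7.47 and 7.59, head excision 10.95.

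HeAn_S_25433 carries the terms tryptophan metabolic process, hydro-lyase activity and pyridoxal phosphate binding, pyridoxal phosphate being the cofactor of many enzymes that act on amino acids. It read 8.98 and 8.99 at 45 days and 7.59, 7.66 and 7.75 at 50 days, with replicates close together at both ages. The difference was -1.32 ± 0.15 (SE, 2.49-fold lower, adjusted p = 0.0409), with an adjusted p of 0.0663 among probes measured on all 5 arrays and 0.0663 after scaling to the spike-ins. With the replicate number as a block it was 0.0933, and it was 0.0871 to 0.179 with 1 array left out. A neighbouring singleton with the same terms, HeAn_S_25434, chosen after its values were seen, read 5.18 and 5.19 at 45 days and 4.04, 4.25 and 4.44 at 50 days. Its difference of -0.94 ± 0.18 (SE) did not pass (adjusted p = 0.0863). The adjacent numbers and equal terms leave it unknown whether the 2 probes read 1 transcript.

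**Figure D4:**
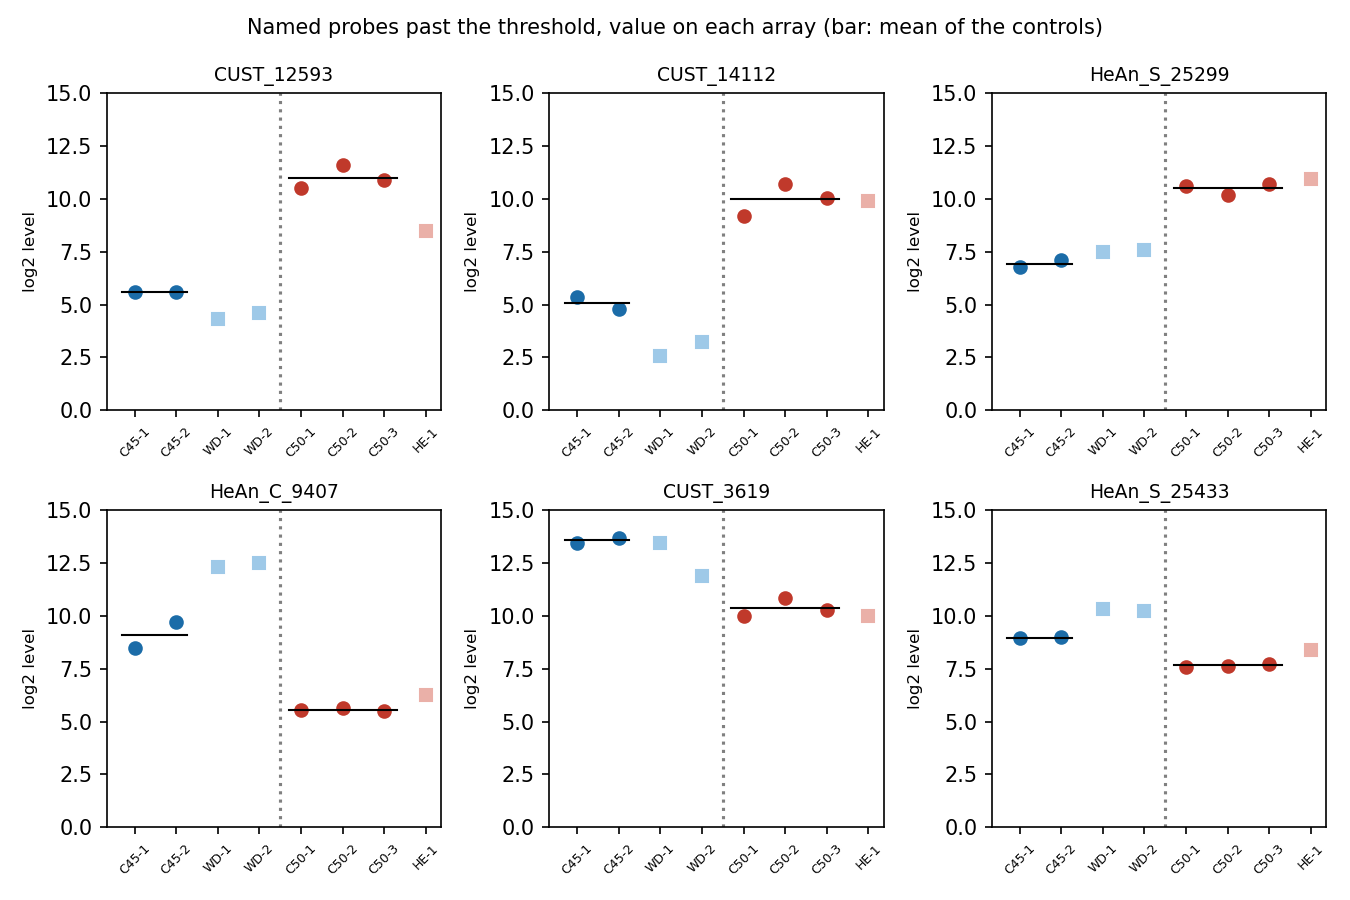
Log2 level on each array of the 6 named probes that passed the threshold: C45 and C50 are the controls of 45 and 50 days (circles, with their mean as a bar), WD water deficit and HE head excision (squares), with the slides parted by the dotted line. In each panel the 3 values of the 50-day controls lie on one side of both 45-day values.

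At an unadjusted p below 0.01, 29 of the 343 annotated singletons (8.45%) passed, 13 higher and 16 lower, close to the 7.84% over all tested probes, and their median difference was -0.08. Within 14 lists defined by Gene Ontology terms, 0 members passed the adjusted threshold in either direction, and 10 of the 106 singletons tested in them had an unadjusted p below 0.01. Protein kinases, which pass signals by phosphorylating other proteins, had 23 tested members with a median difference of -0.06 and 1 at p below 0.01. Oxidation-reduction, also with 23, had a median of -0.18 and 2, both higher. Transcription had 15 tested members, 0 at that level and a median of -0.10. The median over all tested probes was 0.0015.

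The plastid list, proteins of the chloroplast and its relatives, had 7 tested members with a median of -0.04. Of these, 3 had an unadjusted p (limma) below 0.01 and all 3 were lower at 50 days. Over all tested probes 3.86% were lower at that level, and 7 members are too few to set against this share. HeAn_S_25594, annotated as an alanine-tRNA ligase, which charges the tRNA for alanine in protein synthesis, read 10.99 and 11.58 at 45 days and 10.33, 10.46 and 10.24 at 50 days. Its difference was -0.94 ± 0.22 (SE, adjusted p = 0.114). HeAn_S_25604, with the term for amino acid biosynthesis, read 8.29 and 8.69 at 45 days and 7.47, 7.61 and 7.73 at 50 days (difference -0.88, adjusted p = 0.101). The third, HeAn_S_25661, is also in the stress list. For each of these the groups did not overlap, as for 21% of all tested probes in that direction, and none passed the adjusted threshold.

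All 4 tested members of the response to stress list had every 50-day value below both 45-day values. Over all tested probes the share was 21%, and 4 members are too few to set against it. The median difference of the 4 was -1.36, but 0 passed the adjusted threshold and 1 had an unadjusted p (limma) below 0.01. HeAn_S_25661 and HeAn_S_25376 share the term for carbon-oxygen lyases acting on phosphates, the reaction class of terpene synthases, which make volatile and defence compounds. HeAn_S_25661 read 7.94 and 9.41 at 45 days and 6.45, 7.13 and 6.88 at 50 days (difference -1.85, adjusted p = 0.125). HeAn_S_25376 read 6.87 and 8.52 at 45 days and 5.89, 6.38 and 5.36 at 50 days (difference -1.82, adjusted p = 0.159). In both the 45-day replicates were more than 1 log2 unit apart, replicate 2 being the higher. The water deficit arrays were higher again, at 11.74 and 12.07 for the first and 10.25 and 10.88 for the second. The others, HeAn_S_25996 and HeAn_S_25957, are annotated for protein folding, the work of chaperones, and differed by -0.90 and -0.51.

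Oligopeptide transport, a route by which nitrogen leaves ageing leaves, had 5 tested members, all with a higher mean at 50 days (median 0.36) and 3 without overlap of the groups. Over all tested probes, 14300 of 28497 had a higher mean and 21.1% did not overlap in that direction. With 5 members the list is too small to set against these shares. HeAn_S_25404 read 5.31 and 4.58 at 45 days and 7.15, 6.51 and 6.72 at 50 days, a difference of 1.85 ± 0.30 (SE, adjusted p = 0.0724). It read 7.61 after head excision, above the controls of its slide, and 3.26 and 1.30 under water deficit, below those of its own. HeAn_S_25999, with the term UDP-glycosyltransferase activity, the attachment of sugars to small molecules, is in none of the lists. It read 6.13 and 6.27 at 45 days and 4.06, 4.80 and 4.24 at 50 days (difference -1.83, adjusted p = 0.0607). Singletons named from HeAn_S_25594 on were chosen after their values were seen.

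**Figure D5:**
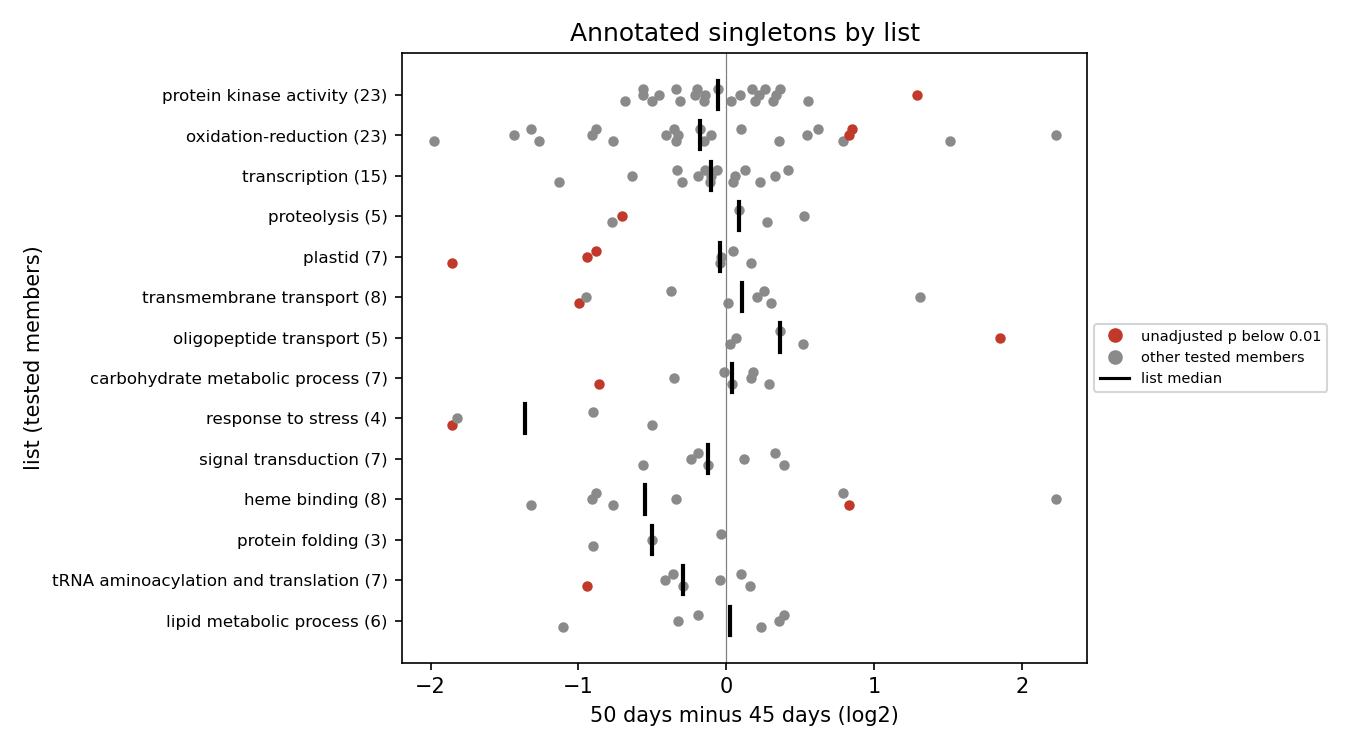
Difference between the ages (50 minus 45 days, log2) of each tested annotated singleton (points) in 14 Gene Ontology lists, with the number tested in brackets, the list median as a bar and members with an unadjusted p below 0.01 in red. Medians lie between -1.36 (response to stress, 4 members) and 0.36 (oligopeptide transport, 5 members).

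The remaining lists were small. Heme binding (8 tested) had a median of -0.55 with members from -1.32 to 2.23, and protein folding (3) one of -0.51. Translation and tRNA aminoacylation (7) had a median of -0.30, and signal transduction (7) one of -0.12. Proteolysis (5), transmembrane transport (8), carbohydrate metabolism (7) and lipid metabolism (6) had medians between 0.02 and 0.11. In these 8 lists 5 memberships had an unadjusted p below 0.01, 1 higher and 4 lower. With 3 to 8 members a list, the counts are too low to set against the 7.84% over all tested probes.

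A set of 10 unigenes, chosen for quantitative PCR because of their response to water deficit, was followed in the untreated leaves. On all 5 control arrays 8 of them were not well above background, and no fold is given for these. HeAn_C_2975 was the brightest, at 10.45 and 10.44 in the 45-day controls and 9.86, 9.96 and 9.91 in the 50-day controls. Replicates of an age lay close together and the groups did not overlap, yet the difference of -0.53 ± 0.14 (SE) did not pass (adjusted p = 0.133). HeAn_C_4439 read 4.97 and 4.94 at 45 days and 3.96, 4.43 and 4.32 at 50 days, a difference of -0.72 ± 0.19 (SE, adjusted p = 0.135), close to background at both ages.

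The study describes the sunflower control probes as a positive control set, drawn from genes already known to be sensitive to abiotic stress. They were thus not chosen as references of stable level. These 74 transcripts, spotted 10 times each on every array, allowed the spread within an array to be set beside the difference between the ages. Of these, 65 were tested, 0 passed the adjusted threshold, and 6 (9.23%) had an unadjusted p below 0.01, 2 higher and 4 lower, against 7.84% of all tested probes. The SD over the 10 spots of a probe was 0.08 log2 units in the median. The SD between arrays of one age was 0.21 at 50 days and 0.24 at 45 days, and the median size of the difference between the ages was 0.28. For 55 of the 65 the difference between the ages was larger than the spot-to-spot SD, which leaves out the spread between samples. In 36 of these 55 the groups of arrays overlapped. The groups of arrays did not overlap for 7 higher and 12 lower probes of the 65, where the shares over all tested probes were 21.1% and 21%. The largest difference was that of a probe reading 12.71 and 14.64 at 45 days and 10.08, 11.14 and 11.25 at 50 days (-2.85 ± 0.66, SE, adjusted p = 0.111), whose 45-day replicates were themselves 1.93 log2 units apart. Spot-to-spot error was thus small beside the differences between samples of one age.

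The 3 treated arrays took no part in the calls, and the difference between the head excision array and the mean of the water deficit arrays crosses the same 2 slides without using a control array. It had the same sign as the difference between the control ages for 20117 of the 28497 tested probes (70.6%) and for 182 of the 184 called probes, 117 of 119 higher and 65 of 65 lower. Its median was 2.40 log2 units for the higher and -2.66 for the lower calls, against 0.06 over all tested probes. Of these calls, 63 higher and 16 lower had passed the filter only through their bright age. Like signs were not counted apart for the 98 calls measured on all 5 arrays. For the lower calls the water deficit mean lay above both 45-day controls in 55 cases and below both in 6, which widens the second difference in most of them. For the higher calls it lay below both in 51 cases and above both in 43. The head excision array lay above all 3 50-day controls for 41 of the 65 lower calls and below all 3 for 14. For the higher calls that array lay below all 3 in 79 cases and above all 3 in 25. In most calls of either direction its position thus narrows the second difference. Pearson's r between the differences was 0.66 across the tested probes, which are not independent. Treatment, age and slide all change in this second difference, so it repeats the slide as well as the age, and these cannot be told apart.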

How the data were processed

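Total leaf RNA was labelled with Cy3 and hybridized to Agilent arrays. The authors deposited, per array, scanner output with spot intensity on a linear scale, background subtracted by Agilent Feature Extraction (version 9.1 in the submitters' notes, 10.7.1.1 in the file headers), and a table of log2 values for 40243 probes. Each deposited log2 column correlated best with its own array's signals (r at least 0.998, against at most 0.991 with another array), and the methods name normexp correction with offset 1 and quantile normalization. The number of arrays limits the precision. Replicates are the samples the labels number. The methods describe randomized complete blocks with 3 plots, but no label ties a sample to a plot, so p-values measure the spread between these samples.

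The deposited log2 values were fitted in R 4.3.3 with limma 3.58.1 (lmFit and eBayes, 3 arrays against 2, p-values adjusted by Benjamini-Hochberg over 28497 probes, threshold 0.05). A probe was tested if flagged well above background on every array of 1 age or of both, for probes with 10 spots on more than 5 spots. Spike-in means were compared by exact permutation tests. The script was tested on simulated data. Unigene names were assigned by matching 1998 rows of a supplementary table to fits of these files, which gave a number offset of 10 for all 52 matched singletons spanning the annotated range. Values in that table were used for identity only. Named probes were the 2 largest rises and 2 largest falls among unnamed called probes measured on all 5 arrays, called annotated singletons, the 10 quantitative PCR unigenes and the 10 spike-ins. Members and lists were chosen with earlier results of these data known. Alternatives covered filter, background correction, normalization, spike-in scaling, eBayes options, all 8 arrays, a replicate block and each replicate left out. Adjusting over probes measured on all 5 arrays for single probes, and counting only control probes above the background floor, were added after seeing the data.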

Additional observations from a re-analysis of the deposited data

How the results depend on the processing

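The count of 184 probes past the adjusted threshold was 105 without the filter on dim probes, 9 among probes measured on all 5 arrays, 1 from median signals (normexp, offset 50, quantile), 541 with no normalization, 623 after scaling to the spike-ins and 928 with all 8 arrays in one fit. It stayed between 179 and 195 under the other scalings and eBayes options, and ran from 3 to 242 when 1 array was left out. At an unadjusted p below 0.01 the count of 2233 stayed between 1770 and 2953 under every alternative that kept all 5 arrays and ran from 1039 to 1906 with 1 left out. Leaving out 1 array gave 2 to 4 sunflower controls and 16 to 28 annotated singletons at that level, 421 to 827 probes detected at 50 days alone and 125 to 234 at 45 days alone. The spike-in difference of 0.28 was 0.052 after quantile normalization and 0.15 to 0.40 with 1 array left out. Agilent control probes past the adjusted threshold numbered 0 in each fit run. None of the 8 tested leaf probes named changed direction in the settings run, but 4 of the 10 spike-ins, E1A_r60_a20, a22, a97 and a135, turned from above to below 0 after quantile normalization. HeAn_S_25299 missed the threshold without 50-day replicate 3 (adjusted p = 0.0627), as did the other 5 named probes that had passed. The causes were not tested.

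With the replicate number as a block, 0 probes passed (smallest adjusted p 0.0640) and 2305 had an unadjusted p below 0.01. Deviations of replicates 1 and 2 correlated between the ages (r = 0.38 across probes), and the methods describe a field layout in complete blocks. No label ties a replicate number to a field block, the 2 shared numbers are also the array positions on the slides, and whether they pair the samples was not settled. In that fit 50-day replicate 3, alone in its block, adds nothing.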
